A study of Mus musculus with 2 samples.

Results

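Ugt2 and Ugt3 enzymes add a sugar to drugs, steroids and bile acids in the liver, and 9 of their genes were read in precancerous liver of mice with and without the histone demethylase gene Kdm3a. The members were Ugt2a3, Ugt2b1, Ugt2b5, Ugt2b34, Ugt2b35, Ugt2b36, Ugt2b38, Ugt3a1 and Ugt3a2. They were chosen by name, and every probe set that the platform annotation assigns to them was taken, which gave 11 probe sets of the 45101 on the array, and 9 genes of the 18193 that a probe set names alone. None of the 11 named several genes in the annotation (0 of 11). A probe set each of Ugt2b34 and Ugt3a1 ended in _s_at, a suffix of probe sets that may match several transcripts. The knockout signal was 2-fold or more above the wild-type signal for 3 members, Ugt2a3, Ugt3a1 and Ugt2b38, and 5 others had signals within 1.5-fold of each other on the arrays. The remaining gene, Ugt2b35, was 1.85-fold lower in the knockout array.

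Mice of both groups carried a Pik3ca transgene specific to hepatocytes (Pik3caTg), which codes for the catalytic subunit of phosphoinositide 3-kinase. One group was also knockout for Kdm3a (Pik3caTg;Kdm3aKO) and the other was Kdm3a wild type (Pik3caTg;Kdm3aWT), both on regular chow. Each group had 1 Affymetrix array of total liver RNA, and age, sex, the transgene's promoter, the cells that lack Kdm3a and the number of animals behind an array were not given in the sources used here. With 1 array per group there was no replicate check, no test and no p-value, and every value describes these arrays, whose number limits the precision. Ratios are log2 of the knockout over the wild-type signal.

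UDP glucuronosyltransferases sit in the membrane of the endoplasmic reticulum, with the catalytic site facing the lumen. Ugt2 enzymes transfer glucuronic acid from UDP-glucuronate to lipid-soluble compounds, which makes them soluble enough for bile or urine, and hepatocytes are the main site of this step. The Ugt3 enzymes use other sugar donors: human UGT3A1 uses UDP-N-acetylglucosamine, and human UGT3A2 uses UDP-glucose and UDP-xylose. The Ugt2b genes arose by tandem duplication and each has its own promoter, while the Ugt1a genes share their last exons.

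The promoters show how close some members are. Shown first are the 250 bases before the annotated start of Ugt2b38, Ugt2b5 and Ugt2b37, genes of 1 cluster whose ratios differed, from RefSeq, build GRCm38.p6, read 5′ to 3′ towards the gene. Ugt2b37 is a Ugt2 gene outside the 9 members. Capitals mark AGGTCA, the core that many nuclear receptors bind.
Ugt2b38 (chr5:87424204-87424453, - strand): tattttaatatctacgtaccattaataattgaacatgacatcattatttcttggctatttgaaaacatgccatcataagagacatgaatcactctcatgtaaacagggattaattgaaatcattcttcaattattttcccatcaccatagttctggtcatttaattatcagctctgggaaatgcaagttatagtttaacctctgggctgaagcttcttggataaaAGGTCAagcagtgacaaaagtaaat
Ugt2b5 (chr5:87140341-87140590, - strand): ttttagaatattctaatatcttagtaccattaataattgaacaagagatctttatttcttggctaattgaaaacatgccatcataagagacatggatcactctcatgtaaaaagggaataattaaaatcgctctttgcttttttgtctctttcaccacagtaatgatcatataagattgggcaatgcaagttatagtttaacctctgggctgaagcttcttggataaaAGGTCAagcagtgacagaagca
Ugt2b37 (chr5:87254789-87255038, - strand): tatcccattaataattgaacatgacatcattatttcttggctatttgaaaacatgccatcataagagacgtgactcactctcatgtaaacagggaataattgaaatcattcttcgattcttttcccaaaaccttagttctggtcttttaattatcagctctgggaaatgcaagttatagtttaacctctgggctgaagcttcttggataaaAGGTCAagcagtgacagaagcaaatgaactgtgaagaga
Aligned over their length with end gaps free, the Ugt2b38 and Ugt2b37 windows had 224 identical bases among 236 aligned, an identity of 94.9%. Ugt2b38 and Ugt2b5 shared 212 identical bases among 240 aligned (88.3%), and Ugt2b5 and Ugt2b37 shared 199 among 226 (88.1%). By contrast, the Ugt2b38 and Ugt2a3 windows had 132 identical bases among 183 aligned (72.1%). Windows of Ugt3a1, on chromosome 15, reached such values too, with 90 among 117 against Ugt2b38 (76.9%) and 99 among 120 against Ugt2b1 (82.5%). The identity counts aligned bases alone, so values at this level do not show relatedness.

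Shown next are the promoters of the 2 members with the highest ratios, Ugt2a3 and Ugt3a1, with GTTAAT in capitals, the core bound by the hepatocyte factor HNF1, and of Ugt2b35, the member with the lowest ratio, with AGGTCA in capitals. In Ugt3a1 the match is on the other strand and so reads ATTAAC.
Ugt2a3 (chr5:87337196-87337445, - strand): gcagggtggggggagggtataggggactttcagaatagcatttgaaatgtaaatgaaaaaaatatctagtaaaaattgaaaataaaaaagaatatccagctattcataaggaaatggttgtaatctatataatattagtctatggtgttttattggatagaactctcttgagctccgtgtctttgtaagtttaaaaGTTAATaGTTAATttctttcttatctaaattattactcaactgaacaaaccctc
Ugt3a1 (chr15:9279579-9279828, + strand): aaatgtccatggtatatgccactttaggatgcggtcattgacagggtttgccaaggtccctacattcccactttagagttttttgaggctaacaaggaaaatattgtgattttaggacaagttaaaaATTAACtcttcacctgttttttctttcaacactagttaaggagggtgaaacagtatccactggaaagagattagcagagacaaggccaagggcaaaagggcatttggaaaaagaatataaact
Ugt2b35 (chr5:87000610-87000859, + strand): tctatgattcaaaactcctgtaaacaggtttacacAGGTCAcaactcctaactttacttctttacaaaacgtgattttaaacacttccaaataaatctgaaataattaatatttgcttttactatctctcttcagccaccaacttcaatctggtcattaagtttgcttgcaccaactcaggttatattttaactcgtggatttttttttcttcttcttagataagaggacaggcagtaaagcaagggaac
A window was found for 8 of the 9 members, and both strands were searched. GTTAAT occurred in 2 of these 8, Ugt2a3 and Ugt3a1, against 6.43% of all 32851 promoter windows. In Ugt2a3 it occurred 2 times, from 54 to 49 and from 47 to 42 bases before the start. In Ugt3a1 it lay 123 to 118 bases before the start, inside and overlapping a match to the HNF1 palindrome with 2 free central positions, which 0.0335% of all windows held. The palindrome with 1 of these positions set to A was in 0 of the 8 and in 0.00913% of all windows. AGGTCA occurred in 4 of 8, Ugt2b5, Ugt2b35, Ugt2b36 and Ugt2b38, against 14% of all windows. In Ugt2b5, Ugt2b36 and Ugt2b38 it ended 17 to 20 bases before the start, while in Ugt2b35 it lay 215 to 210 bases before it. The Ugt2b genes arose by tandem duplication, so the 4 matches need not be independent, and their count does not show enrichment. The TATA box TATAAA was in 1 of 8 (12.4% of all windows), CCAAT in 2 (33.8%), and the C/EBP spelling TTGCNNAA in 2 (9.56%). The STAT palindrome TTCNNNGAA (7.02% of all windows) and the aryl hydrocarbon receptor core GCGTG (28.2%) were in 0 of 8. These are matches of letters, which do not show that a factor binds.

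The labels were checked on Kdm3a, whose signal was 61.6 in the knockout array and 719.9 in the wild-type array. The sources used here do not say whether the stretch read by its single probe set was deleted. Signals are MAS5 probe-set intensities on a linear scale, and both arrays had been scaled to the same trimmed mean of 500.004. Values under 46.5, the 40th percentile of all values, were raised to that floor, and probe sets with a mean under 73.7 were left out. All 9 members and all 11 probe sets passed, and 0 of the 11 lay below the floor on either array. Where several probe sets of one gene were kept, their log2 ratios had an SD of 0.446, which covers error within the arrays alone.

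Ugt2a3, whose human counterpart glucuronidates bile acids, had a signal of 15886 in the knockout array and 6979 in the wild-type array, and was 2.28-fold higher in the knockout array (log2 ratio 1.19). Ugt3a1 was read by 2 probe sets. The brighter had 4897 in the knockout array and 2213 in the wild-type array (2.21-fold, 1.15), and the other had 2763 in the knockout array and 1192 in the wild-type array (2.32-fold, 1.21). The probe sets of Ugt3a1 thus differed by far less than the usual spread between probe sets of a gene, although the dimmer ended in _s_at. Its neighbour Ugt3a2 had 13822 in the knockout array and 9257 in the wild-type array, which is 1.49-fold higher in the knockout array (0.58). The Ugt3 genes both had higher signals in the knockout array, and 1 of the 2 passed 2-fold.

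Ugt2b38 had a signal of 155.3 in the knockout array and 76.5 in the wild-type array, a 2.03-fold difference (1.02). These signals were 3.34 times the floor in the knockout array and 1.64 times in the wild-type array, nearer to background than for any other member, and the gene fell short of 2-fold under several scalings. Its near copy Ugt2b37 went the other way, with 78.9 in the knockout array and 171.5 in the wild-type array (2.17-fold lower in the knockout array, -1.12). Ugt2b5, the third of these related genes, had 37000 in the knockout array and 33526 in the wild-type array (0.14). Probe sequences were not used here, so whether these probe sets read each other's RNA was not tested.

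**Figure D1:**
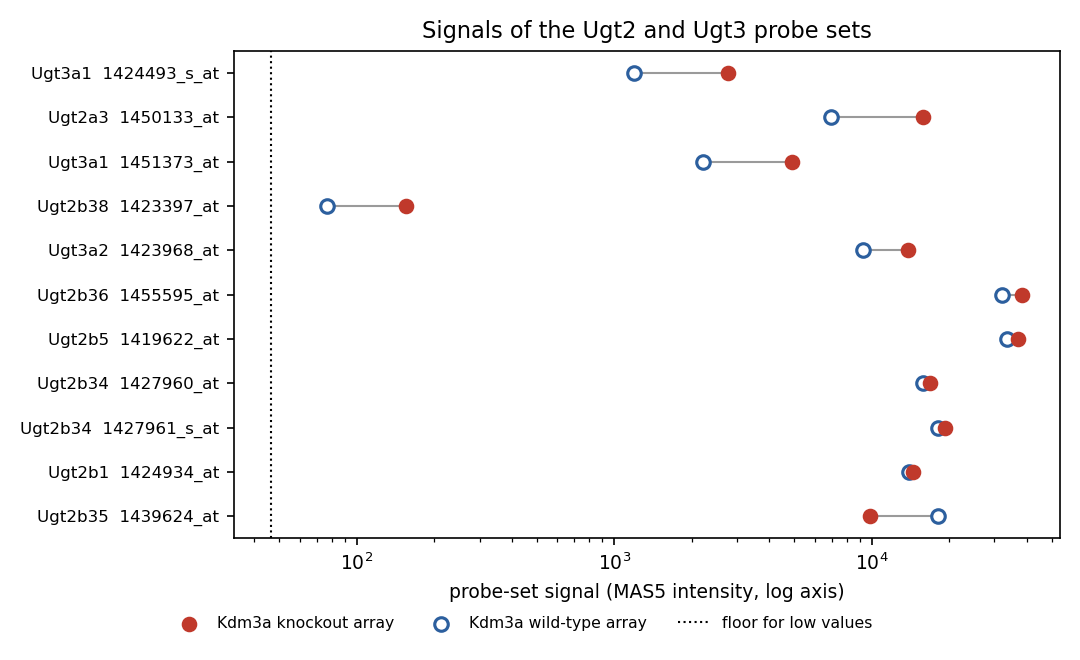
Signal of each of the 11 member probe sets on a log axis, filled for the Kdm3a knockout array and open for the Kdm3a wild-type array, with 1 array per group and the floor of 46.5 as a dotted line. Ugt2a3, both probe sets of Ugt3a1, and Ugt2b38 have the widest gaps with the knockout array to the right, Ugt2b38 close to the floor, and Ugt2b35 is reversed.

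Ugt2b35 was the member with a lower signal in the knockout array, with 9810 there and 18111 in the wild-type array (-0.88). It stayed within 2-fold as deposited and passed it after quantile normalization (-1.04), loess (-1.05) and scaling on the hybridisation controls (-1.02). Its probe set reads this gene alone by the annotation, and no second probe set was there to check it. The other Ugt2b genes, enzymes for steroids and drugs, lay close to equal on the arrays. Ugt2b36 had 38459 in the knockout array and 32101 in the wild-type array (0.26). The 2 probe sets of Ugt2b34 had 19314 and 16901 in the knockout array, against 18042 and 15765 in the wild-type array, with ratios of 0.10 in both. Ugt2b1 had 14525 in the knockout array and 13925 in the wild-type array (0.06). The signs of Ugt2b1, Ugt2b34, Ugt2b5 and Ugt2b36 depended on the scaling: all 4 were below 0 after quantile normalization, from -0.16 for Ugt2b5 to -0.04 for Ugt2b36.

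Ordered by ratio, Ugt2a3, Ugt3a1 and Ugt2b38 stood within 0.04 and 0.12 of their neighbours, well inside the SD of 0.446 between probe sets. The gap from Ugt2b38 to Ugt3a2 was 0.44 and that from Ugt3a2 to Ugt2b36 was 0.32, both also under this SD. Ugt2b36, Ugt2b5, Ugt2b34 and Ugt2b1 could not be ordered, with gaps of 0.04 to 0.12. The gap below Ugt2b1, to Ugt2b35, was 0.95, or 2.12 times the SD. This SD is that of 1 probe set around its gene's mean, and a difference of 2 ratios varies more. The multiple thus overstates how far Ugt2b35 stands apart. The members that just passed and just missed 2-fold were Ugt2b38 at 1.02 and Ugt2b35 at -0.88.

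The share of members at or past 2-fold with the knockout array higher was 33.3% (3 of 9), against 3.83% of the 11693 genes compared, and with the knockout array lower it was 0 of 9, against 8.96% of genes. Ratios were above 0 for 8 of 9, against 47.8% of all genes, but for 4 of 9 after quantile normalization, 5 of 9 after loess, 6 of 9 with scaling on the hybridisation controls and 7 of 9 with centring on medians. The members' median ratio was 0.26, against -0.02 over all genes, and it was -0.04 after quantile normalization. The members were mostly bright genes, with 8 of 9 among the 2339 genes of brightest mean signal, those above 2116. Of these 2339 genes 4.49% were higher in the knockout array by 2-fold or more, 4.4% were lower by as much, 61.1% had a ratio above 0, and the median was 0.12. Ugt2b38 is the member outside these bright genes, and 2 of the other 8 were at least 2-fold higher. The count higher was 2 of 9 with centring on medians, loess and scaling on the hybridisation controls. After loess and with those controls, 1 of 9 was lower by as much. A higher share of members than of all genes was past 2-fold, and with 1 array per group this difference has no test.

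**Figure D2:**
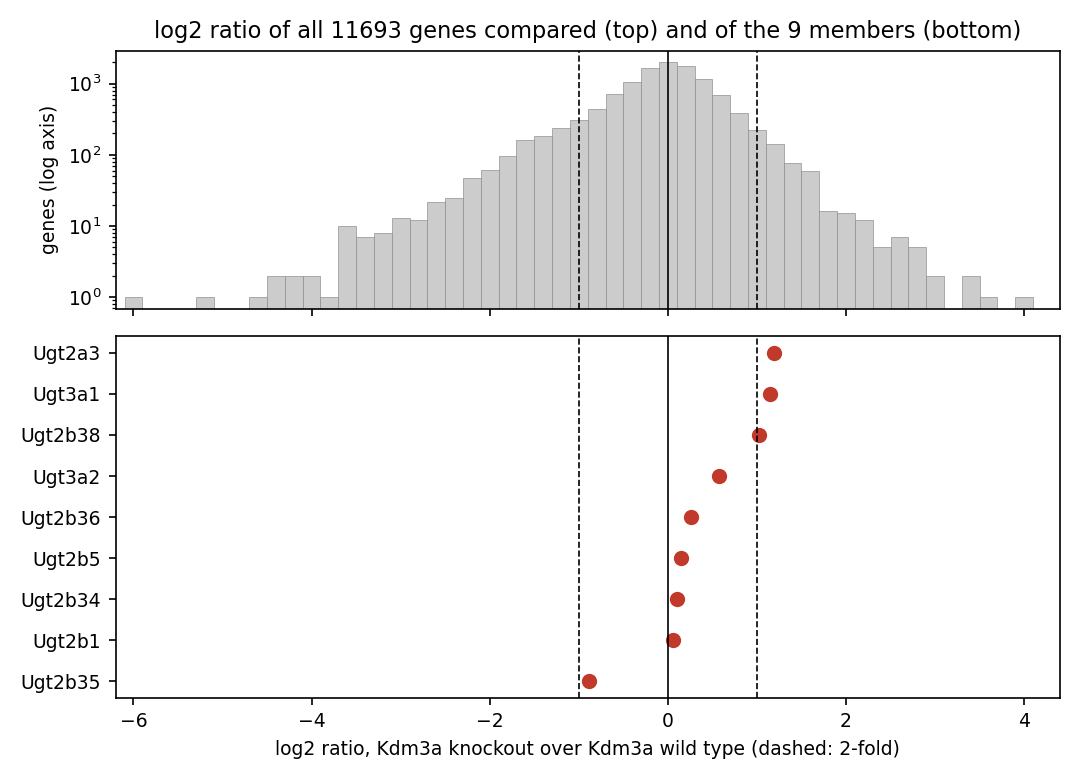
Log2 ratios of knockout over wild type, for all 11693 genes as a histogram with a log count axis (top) and for each of the 9 members by its brightest probe set (bottom), with dashed lines at 2-fold. Ugt2a3, Ugt3a1 and Ugt2b38 lie to the right of the 2-fold line, and Ugt2b35 lies at -0.88.

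The members lie in 2 gene clusters, and their ratios were set out in chromosome order. On chromosome 5 the order of RefSeq protein-coding genes was Ugt2b34, Ugt2b1, Ugt2b35, Ugt2b36, Ugt2b5, Ugt2b37, Ugt2a3, Ugt2b38, Ugt2a1 and Ugt2a2. At the Ugt2b34 end, the ratios were 0.10 and 0.06 before Ugt2b35 at -0.88, and the outer neighbour Ythdc1, an RNA-methyl reader, stood at 0.11. At the other end, Ugt2a3 at 1.19 and Ugt2b38 at 1.02 were next to each other. The genes following the cluster on that side are sulfotransferases, which add sulfate to similar compounds. Sult1b1 had 1536 in the knockout array and 637.1 in the wild-type array (1.27), and Sult1d1 had 19542 in the knockout array and 9548 in the wild-type array (1.03). A second, dimmer probe set of Sult1d1 was at 0.93, under 2-fold. These neighbours were looked up after the values of the members had been seen. Inside the cluster, Ugt2b37 at -1.12 stood between Ugt2b5 at 0.14 and Ugt2a3. Ugt2a1 and Ugt2a2 shared 1 probe set, with 66.5 in the knockout array and 47.8 in the wild-type array, and it did not pass the filter on low values. On chromosome 15, Ugt3a1 and Ugt3a2 are adjacent. Their nearest compared neighbours were Skp2 at -0.59 and Il7r, an immune receptor gene that was below the floor in the knockout array.

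**Figure D3:**
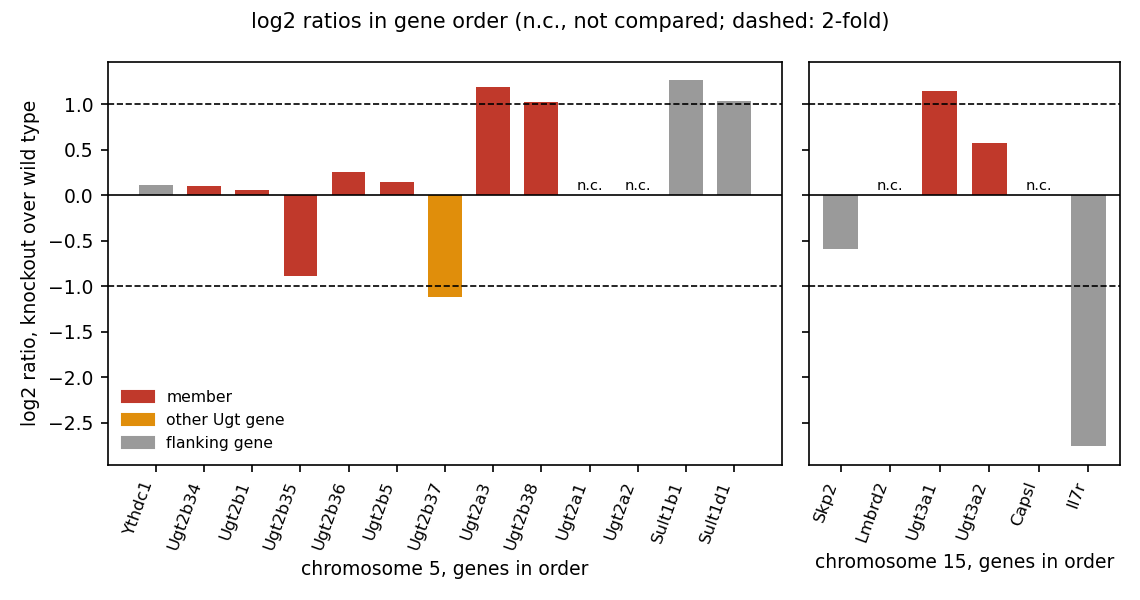
Log2 ratio of knockout over wild type for the protein-coding genes of the Ugt2 cluster on chromosome 5 and the Ugt3 pair on chromosome 15, in chromosome order with equal spacing, members in red, other Ugt genes in orange and flanking genes in grey. By their brightest probe sets, Ugt2a3, Ugt2b38, Sult1b1 and Sult1d1 stand at or above 1.02, and Ugt2b35 and Ugt2b37 below 0. The bar of Il7r is a bound because its knockout signal was under the floor.

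The Ugt1a genes, which include the bilirubin-conjugating Ugt1a1, were read by 3 probe sets that each named 8 genes and so entered no count. Their signals were 49368, 30749 and 25493 in the knockout array, against 38321, 23959 and 21153 in the wild-type array, with ratios of 0.37, 0.36 and 0.27. Of 13 other UDP glucuronosyltransferases listed, 2 were compared as single genes, and both were at least 2-fold lower in the knockout array, with a median of -1.19. These were Ugt2b37 and Ugt8a, a galactosyltransferase of myelin lipid synthesis, at 74.8 in the knockout array and 180.1 in the wild-type array (-1.27). These signals were close to the floor, and 1 of the 2 genes passed 2-fold once the poly-A controls set the scale.

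Genes listed for the supply of UDP-glucuronate, the donor of the Ugt2 enzymes, did not follow the higher Ugt2 members, Ugt2a3 and Ugt2b38. The list was written from general knowledge. The part of Pgm2 (-0.72), Slc35b1 (-0.56) and Slc35d2 (0.00) in this supply was not checked. The contrast rests mainly on Ugt2a3, because Ugt2b38 was close to the floor. It does not extend to Ugt3a1, because the Ugt3 enzymes use other donors. Of the 7 genes listed for this supply, 0 were past 2-fold in either direction and 5 had a ratio below 0. Their median was -0.46 and stayed below 0 under all 5 other scalings. Ugdh, the dehydrogenase that forms UDP-glucuronate, had 10351 in the knockout array and 14256 in the wild-type array (-0.46). Slc35d1, which carries UDP-glucuronate into the endoplasmic reticulum, was lowest, with 3573 in the knockout array and 6188 in the wild-type array (-0.79), although its second probe set had a ratio of 0.09. The phosphoglucomutase gene Pgm1 was highest at 0.28, and its second, dimmer probe set had 187.3 in the knockout array and 71.1 in the wild-type array, past 2-fold. Ugp2, which makes UDP-glucose, stood at -0.10 by its brightest probe set, and its 5 probe sets ranged from -0.91 to -0.10.

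Of 8 genes for glucuronate use and glucuronide cleavage, 1 passed 2-fold with the knockout array higher and 0 with it lower, with a median of 0.29. Dcxr, the xylulose reductase of the glucuronate pathway, had 9194 in the knockout array and 3299 in the wild-type array (1.48). Gusb, the beta-glucuronidase that cleaves glucuronides, was lowest at -0.72, with a second probe set at -0.91. Of 9 transporters of glucuronides and other organic anions, 3 passed 2-fold upward and 1 downward, with a median of 0.62. The uptake carriers Slco1a1 (2.37), Slco1a4 (1.64) and the bile acid importer Slc10a1 (1.33) were higher, and the efflux pump Abcc4, with 459.1 in the knockout array and 2216 in the wild-type array (-2.27), was lower. Abcc2 and Abcc3, which export glucuronides into bile and blood, had ratios of -0.06 and 0.10.

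Among 16 of 17 listed regulators of conjugation enzymes that were compared, 2 passed 2-fold upward and 0 downward, with a median of 0.26. The repressor Bcl6 had 1450 in the knockout array and 491.7 in the wild-type array (1.56). Nr1i3, the drug-sensing receptor CAR, had 4322 in the knockout array and 1819 in the wild-type array (1.25). Nfe2l2, the activator of antioxidant genes, was lowest at -0.42, and its second probe set was at 0.15.

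Other conjugating families were set beside the members. All 6 compared of 13 Sult genes had a ratio above 0, 5 of 6 with scaling on the hybridisation controls. As deposited, 3 passed 2-fold upward, with a median of 0.97. This count was 2 with centring on medians, quantile normalization, loess and the hybridisation controls, and 5 with the poly-A controls. Sult2a8 was highest (2.09) and Sult5a1 lowest (0.10). Of 18 compared of 20 Gst genes, the glutathione transferases, 3 passed 2-fold upward and 3 downward, with a median of 0.20 that was -0.05 after quantile normalization and -0.01 after loess. Gstt3 was highest (1.79) and Gstm3 lowest (-4.09). The members' range, from -0.88 to 1.19, lay inside that of the Gst genes.

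**Figure D4:**
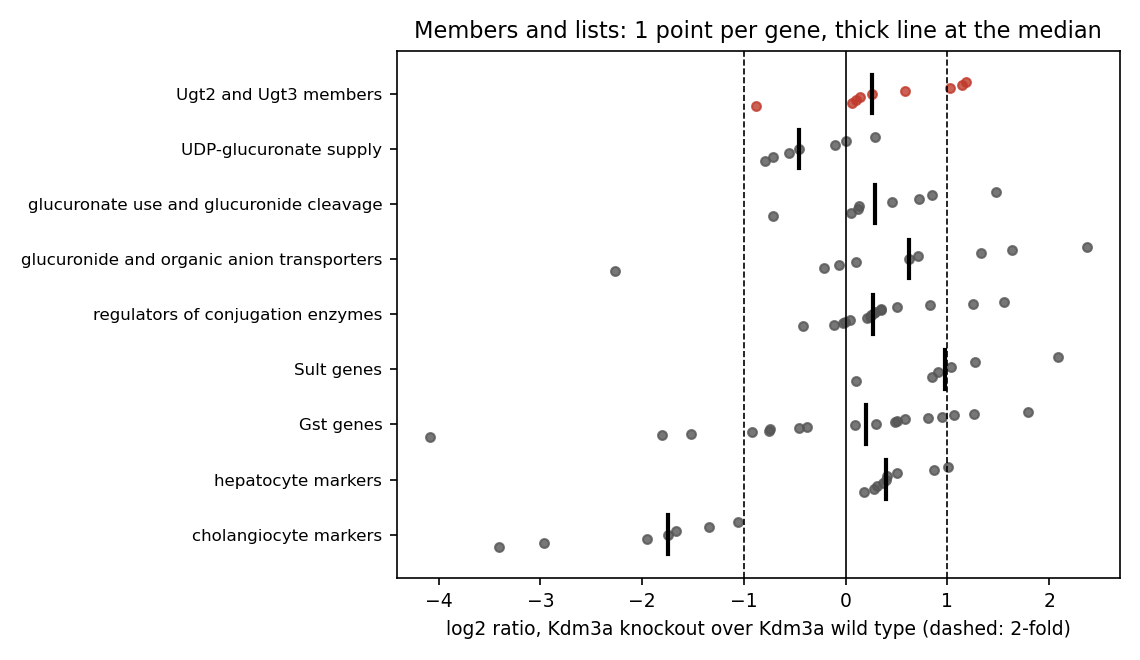
Log2 ratio of knockout over wild type for each compared gene of the members, of 6 lists and families and of hepatocyte and cholangiocyte markers, with 1 point per gene, a thick line at the median and dashed lines at 2-fold. The medians are 0.26 for the members, -0.46 for UDP-glucuronate supply, 0.97 for Sult genes, 0.40 for hepatocyte markers as deposited (0.08 after quantile normalization) and -1.75 for cholangiocyte markers.

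Cell type markers also differed between the arrays, in both directions. The members' signal in whole liver comes from all cells present, and fewer cells of a type and less RNA per cell cannot be told apart. All 9 compared hepatocyte markers had a ratio above 0, 8 of 9 after quantile normalization and 7 of 9 after loess, from Ahsg (0.18) to Hpd, with 50886 in the knockout array and 25381 in the wild-type array. Their median was 0.40 as deposited, 0.08 after quantile normalization and 0.09 after loess. Their summed signal was 485638 in the knockout array and 354305 in the wild-type array. A second, dimmer probe set of Apob, 1 of these markers, was at -0.09. By their brightest probe sets, all 7 compared cholangiocyte markers passed 2-fold with the knockout array lower, from Cd24a (-3.40) to Sox9 (-1.06). This was 6 of 7 when scaled to the poly-A controls. Their summed signal was 952.5 in the knockout array and 6176 in the wild-type array. A dimmer probe set of Epcam was at -0.08 and one of Tspan8 at 0.69. Of 9 markers of stellate cells and fibroblasts 6 were lower by 2-fold or more, from Col3a1 (-3.56) to Reln (0.03), and of 10 macrophage markers 5 were lower and 2 higher by as much, from Gpnmb (-4.12) to Marco (at least 6.01-fold higher). Of 7 endothelial markers 6 had a ratio below 0 and 1 passed 2-fold downward, Vwf (-1.20), while Clec4g was highest (0.41). Of 6 lymphocyte markers 1 passed 2-fold downward, Nkg7 (-1.29), and 1 upward, Ighm (3.44), whose 5 probe sets ranged from 0.19 to 3.44. Nkg7 too was close to the floor, at 58.3 in the knockout array. Both neutrophil markers passed 2-fold downward, S100a9 (-2.18) and S100a8 (-1.73). The part of these cell types in the members' ratios was not tested.

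Genes with sex-biased levels in mouse liver also differed. Of 9 compared of 14 listed male-biased genes, 6 passed 2-fold upward and 0 downward, with a median of 1.20. This was 5 of 8 after loess and 4 of 8 with scaling on the hybridisation controls. Upward as deposited were the elongase Elovl3 (2.86), Slco1a1, the hydroxylase Cyp7b1 (2.05) and Cyp2u1 (at least 3.14-fold). The growth factor receptor Egfr (1.20) and the complement gene C6 (1.13) also passed 2-fold, and Cyp4a12a was lowest (-0.84). The 6 probe sets of Egfr ranged from 0.17 to 1.43. Of 6 compared of 15 listed female-biased genes, 0 passed 2-fold upward and 1 downward, Lpl (-1.87). Of these 6, 4 had a ratio above 0, with a median of 0.28 and the highest ratio for Cyp2b9 (0.70). Their part in the members' ratios was not tested.

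The genes nearest to the extreme members in their pair of signals were looked up. This closeness rests on 2 arrays and on the signals of different probe sets, which depend on their probes, so it is not a likeness of expression levels. Nearest to Ugt2a3 were the glutathione transferase Gstk1 (1.06), the complement gene C8a (0.97) and the urea cycle enzyme Asl (1.43), at distances of 0.12 to 0.22 on the log2 scale. Nearest to Ugt2b35 were the glutathione transferase Gsta2 (-0.75), the chaperone Hsp90aa1 (-0.74) and Tmem176a (-0.79), at distances of 0.10 to 0.22.

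**Figure D5:**
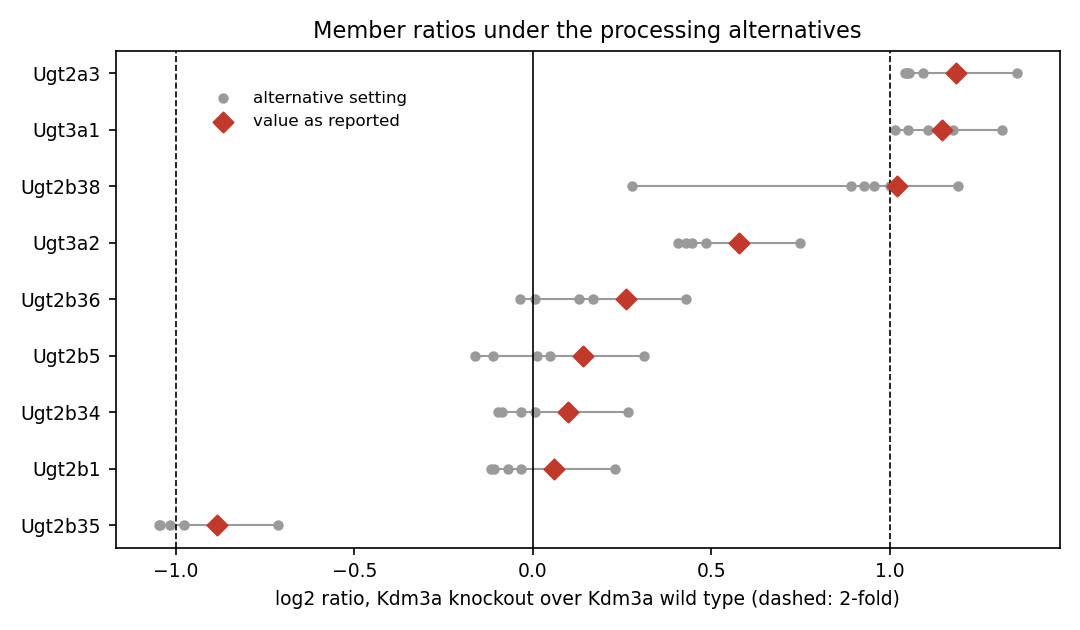
Log2 ratio of each member as reported (red diamond) and under the alternatives for scaling, filter, floor and probe sets (grey points, joined by a line over their range), with dashed lines at 2-fold. Ugt2a3 and Ugt3a1 stay above 1 under every alternative drawn, Ugt2b38 ranges from 0.28 to 1.19, and Ugt2b35 from -1.05 to -0.71.

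Across the 12 alternatives of scaling, filter, floor and probe set, the ratio of Ugt2a3 ranged from 1.04 to 1.36 and that of Ugt3a1 from 1.01 to 1.32, so both stayed past 2-fold in each of them. The changes of filter and floor left both ratios as reported, so they did not test them. Ugt3a2 ranged from 0.41 to 0.75.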

How the data were processed

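Per the labels' protocols, 250 ng of liver RNA per array was amplified and biotin-labelled for Affymetrix arrays. The deposited unit is a linear intensity per probe set, made with MAS5 per the submitters' processing notes, a method that summarises a probe set's probes. No MAS5 setting or build is given in the sources used here. Groups came from the genotype labels, with 1 array each.

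Of 45101 probe sets, 64 were controls, 34945 had 1 gene in the platform annotation, 932 had several and 9160 had none listed. Of the 34945, 34754 were found by gene identifier in a RefSeq table (GRCm38.p6), used for current names and gene order. The floor was 46.5, and probe sets were kept at or above the median of mean signals, 73.7, leaving 11693 genes, each with its brightest kept probe set. Genes were counted at 2-fold. No test was possible. Promoter windows were aligned with Biopython 1.88, and loess used statsmodels 0.14.6. The ratio code was tested on simulated data.

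Members, lists, markers, motifs, rules and alternatives were chosen with earlier results of these data known. Named genes were all members, list genes past 2-fold, and the highest and lowest of each list, family and marker set. The 3 nearest genes were taken for the highest and the lowest member. Ahead of these stood Kdm3a. Ugdh, Ugp2, Abcc2, Abcc3 and genes flanking the clusters were added after values were seen.

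Alternatives were quantile normalization, centring on array medians, loess (span 0.3), scaling on 18 hybridisation or 24 poly-A controls, a filter at the 70th percentile or none, no floor or one at the 20th or 60th percentile, the mean of kept probe sets, leaving out probe sets ending in _s_at, _x_at, _a_at or _f_at, and size rules of 1.5-fold and 3-fold.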

Additional observations from a re-analysis of the deposited data

How the results depend on the processing

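No paired analysis was possible because each group has 1 array and no test was made. A value was taken as moved if it shifted by more than 0.446, the SD between probe sets of a gene, and a count if it changed by over 1.5 times. Of 170 values under 14 alternatives, 163 did not move, 7 moved and 0 called values changed sign. The 163 is not a measure of robustness, because many alternatives left a ratio as it was. Changes of filter and floor altered no ratio of a member other than Ugt2b38. For Ugt2a3, with a single probe set, the changes of scaling alone altered the ratio. A fall in the count of higher members from 3 to 2 was within the rule and so was not taken as moved. The count of members at least 2-fold higher, 3 as reported, was 0 at a size rule of 3-fold. The count lower, 0 as reported, was 1 (Ugt2b35) after quantile normalization, loess, scaling on hybridisation controls and at 1.5-fold. With the floor at the 60th percentile, Ugt2b38 was at 0.28 and the median of the other UDP glucuronosyltransferases at -0.46, as a higher floor raises dim values. With a filter at the 70th percentile, Ugt2b38 and those 2 other genes were not compared. Ugt2b38 stood under 2-fold with centring on medians (0.93), loess (0.96) and scaling on hybridisation controls (0.89). The median of all genes was -0.16 with scaling on hybridisation controls and 0.15 on poly-A controls, against -0.02 as deposited. Genes at least 2-fold higher and lower made up 2.64% and 10.9% of all with the hybridisation controls, and 5.86% and 6.81% with the poly-A controls. Low signal over background limits Ugt2b38, Ugt2b37, Ugt8a and several of the cholangiocyte markers.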
